A study of Homo sapiens with 6 samples.

Results

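Translation initiation factors are the proteins that bring the ribosome, the initiator tRNA and an mRNA together at a start codon. Their genes were taken from the deposited gene table by symbol: names that begin with EIF and a digit from 1 to 6, without pseudogene names (a P and digits at the end) and without EIF1AY, but with the 3 genes of the eIF4E-binding proteins. This gave 55 of 50868 genes. Their mRNA was counted by sequencing in Huh7 cells, a human hepatocellular carcinoma line, labelled wild type and grown with serum. All libraries came from cells given a peptide at 20 µM for 5 days: 3 libraries with the cell-permeating peptide P-T3H2, which the study describes as stabilising the HNF4α protein, and 3 with the control peptide P-T3H2-2A. No library of untreated cells is among these 6, and the labels do not say that replicates came from separate cultures. The p-values therefore measure only the spread between these libraries, which may be technical. Coordinates are for GRCh38.

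Initiation runs through a fixed order of complexes. eIF2 carries the initiator tRNA to the small ribosomal subunit and is recharged with GTP by eIF2B; phosphorylation of its alpha subunit by any of 4 kinases blocks that recharging. eIF1 and eIF1A hold the small subunit open for scanning, and the large scaffold eIF3 binds it. eIF5 makes eIF2 hydrolyse GTP at the start codon. The mRNA is loaded by eIF4F (the cap-binding eIF4E, the helicase eIF4A and the scaffold eIF4G). eIF4F is helped by eIF4B and eIF4H and held back by the 4E-binding proteins. eIF5B and eIF6 act on the joining of the large subunit, and eIF5A, despite its name, acts mainly during elongation and termination.

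Most initiation factor mRNAs were lower with P-T3H2 than in P-T3H2-2A replicates 1 and 2, and a few were higher. Over all 6 libraries none of the 53 genes with enough counts passed edgeR's quasi-likelihood test (smallest adjusted p = 0.275), where 0.00627% of 15946 genes passed. At an unadjusted p under 0.05 there were 14 of 53, 13 lower and 1 higher, which is 26.4%, against 18% of all genes (11.4% lower, 6.58% higher). DESeq2 called none of them (smallest adjusted p = 0.108, for EIF3H) against 0.859% of all genes, with 17 at an unadjusted p under 0.05, where 20.3% of all genes were. The log2 fold change was negative for 45 and positive for 8, with a median of -0.24 beside -0.0039 over all genes. The groups did not overlap for 13 genes, 10 lower and 3 higher with P-T3H2, where all genes gave 11.6% lower and 11.8% higher.

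The library labelled P-T3H2-2A replicate 3 decided these counts. Most genes called without it had a level there like that in the P-T3H2 group, and whether its label is right cannot be told from these files. Values are therefore given with it (6 libraries) and without it, the latter as the 5-library fit, in which 45.4% of 16281 genes passed (22.8% lower, 22.6% higher). Because this control was left out for its likeness to the other group in the measured values, p-values of the 5-library fit are conditional on that choice and are no independent evidence of a difference between the peptides. In that fit 32 of the 53 initiation factor genes fell and 3 rose, 66% in all, with a median log2 fold change of -0.33 beside 0.0028 over all genes. Calls per complex below are to be read against the 45.4% of all genes. Among these 5 libraries the groups did not overlap for 38 genes lower and 6 higher with P-T3H2, where all genes gave 33.3% lower and 33.9% higher. Leaving out any other library gave 0 calls among them. On the log2 scale, that library lay nearer to the P-T3H2 mean than to the mean of the other controls for all 35 genes called, as it did for 93.1% of the 7390 genes called in the whole table. EIF3H, EIF2AK1 and EIF1AX were the called genes for which it lay nearest the middle, at 0.527, 0.595 and 0.731 of the way to the P-T3H2 mean.

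**Figure D1:**
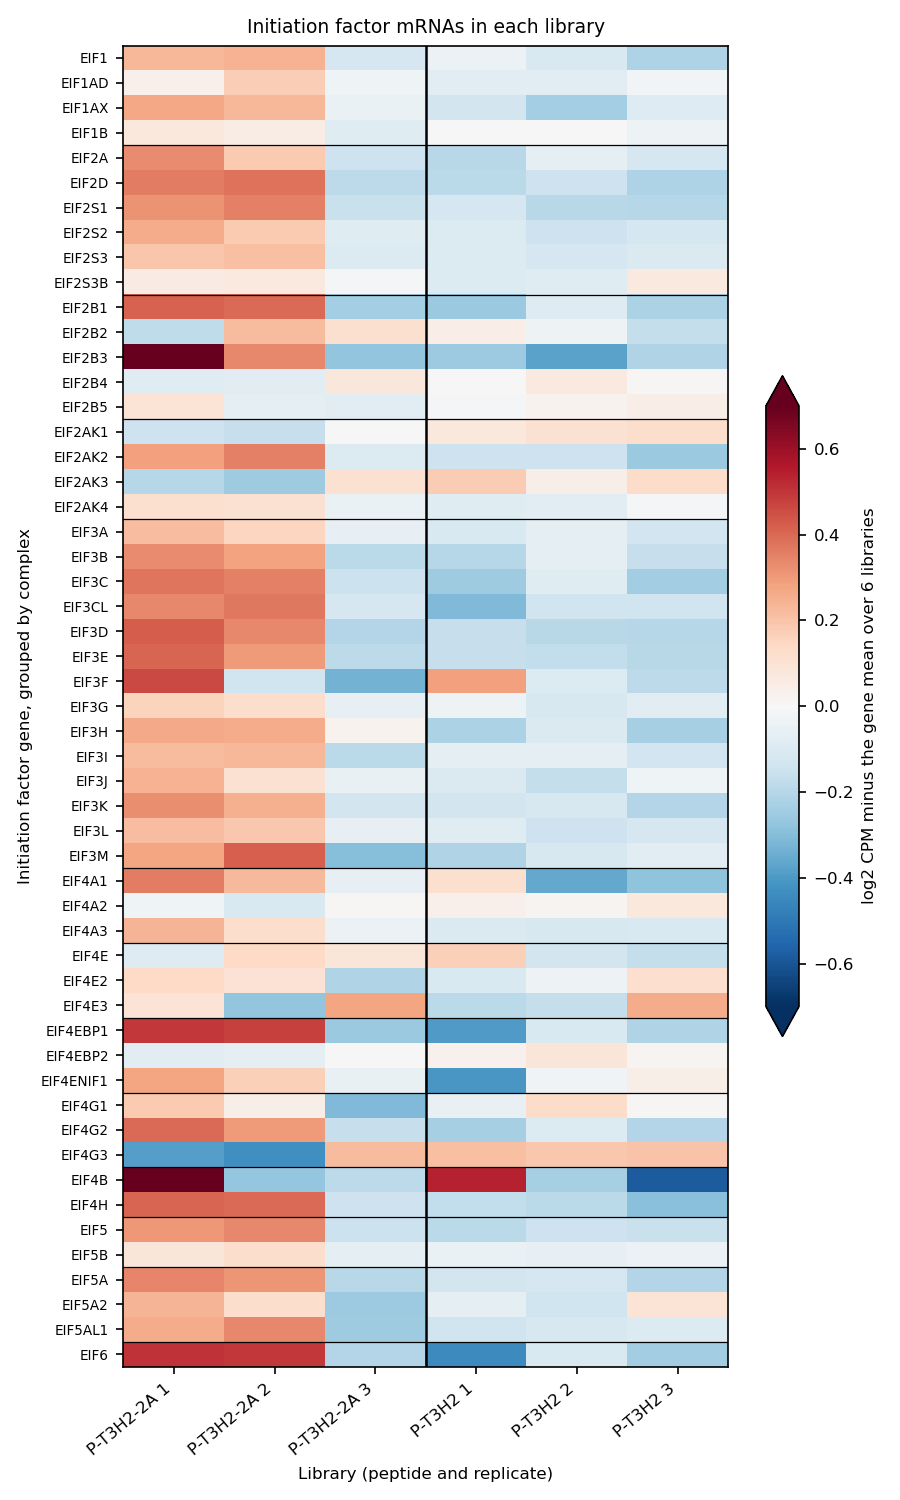
Level of 53 initiation factor mRNAs (rows, grouped by complex between black lines) in the 6 libraries (columns), as log2 CPM minus the mean of the gene over all libraries; red is higher and blue is lower, and colours saturate at the ends of the bar. P-T3H2-2A replicates 1 and 2 are red for most genes, while P-T3H2-2A replicate 3 resembles the P-T3H2 libraries; EIF4B and EIF3F instead are red in replicate 1 of both groups.

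Total counts ranged from 17434442 to 21374732 per library, and initiation factor genes took between 0.7914% and 1.009% of them. All 10 hepatoma markers (ALB, AFP, HNF4A and other liver genes) were detected, with a summed level of 32915 to 33714 CPM with P-T3H2-2A and 30686 to 32316 CPM with P-T3H2. In the 5-library fit 60% of these markers were called, beside 45.4% of all genes. FGB, HNF4A, TF and APOB were lower (log2 fold changes -1.99, -0.69, -0.39 and -0.17). ALB and SERPINA1 were higher (0.42 and 0.45). None of the markers passed with 6 libraries. The 5 leukocyte markers summed to 129.6, 137.07 and 653 CPM with P-T3H2-2A and to between 578 and 685 CPM with P-T3H2; nearly all of this was LYZ, and CD3E and CSF1R were at or near 0. CD68, of the same list, went the other way, at 2.37, 2.33 and 0.33 CPM against 0.42, 0.87 and 0.33 CPM (edgeR adjusted p = 0.00334 in the 5-library fit, 0.279 with 6 libraries), and PTPRC stood between 0.14 and 0.84 CPM. The 6 fibroblast markers summed to 39.97, 40.1 and 59.2 CPM with P-T3H2-2A and to between 48.6 and 58.6 CPM with P-T3H2. The 5 endothelial markers summed to 11.9, 11.5 and 4.15 CPM against 4.99 to 5.17 CPM, with KDR and TEK at 0. In the sums of both the fibroblast and the endothelial list P-T3H2-2A replicates 1 and 2 stood apart from the other libraries, as they did for most initiation factors. Single genes did not all follow the sums. The endothelial sum was mostly PECAM1, with a log2 fold change of -1.73 in the 5-library fit. VWF, at most 1.838 CPM, had 4.16 there. In the fibroblast list PDGFRB stood at 15.04, 14.7 and 23.75 CPM with P-T3H2-2A against 25.34, 25.73 and 21.82 CPM. LUM stood at 8.039, 7.08 and 17.96 CPM against 7.827, 10.62 and 19.27 CPM. LUM, COL1A2 and COL3A1 did not set those libraries apart. The 8 mitochondrial mRNAs summed to 51247, 50558 and 59463 CPM with P-T3H2-2A and to between 59153 and 63974 CPM with P-T3H2, so they were lowest in the same libraries in which most initiation factors were highest. The part of these lists in the results was not tested. Fewer cells of a kind and less RNA per cell cannot be told apart in bulk RNA.

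Most subunits of eIF3, the scaffold that binds the small ribosomal subunit, fell in the 5-library fit. All 14 genes had a negative log2 fold change with 6 libraries (median -0.30). Of these, 4 had an edgeR unadjusted p under 0.05 (28.6%, beside 18% of all genes). In the 5-library fit 13 of 14 fell (92.9%, beside 22.8% of all genes). EIF3D, a subunit that can itself contact the mRNA cap, stood at 214.5, 201.8 and 138.6 CPM with P-T3H2-2A and 142.6, 139.8 and 138.9 CPM with P-T3H2. Its log2 fold change was -0.57 in the 5-library fit (SE 0.0501, edgeR adjusted p = 0.00018) and -0.40 with all libraries (SE 0.166, adjusted p = 0.275). P-T3H2-2A replicate 3 was the lowest library of all, close to the P-T3H2 libraries, and both other controls lay far above them.

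EIF3H had the smallest p of all initiation factor genes with 6 libraries. This non-core subunit stood at 130.8, 130.0 and 110.7 CPM with P-T3H2-2A and 93.1, 101.4 and 92.6 CPM with P-T3H2, so the groups did not overlap (chromosome 8, 116642130 to 116766925). The means were 123.8 ± 11.3 and 95.7 ± 4.93 CPM (SD, n = 3 each), a log2 fold change of -0.37 (SE 0.098, edgeR unadjusted p = 0.00764, adjusted p = 0.275), and -0.45 in the 5-library fit (SE 0.0596, adjusted p = 0.00102). EIF3A, EIF3L and EIF3CL were the other subunits whose groups did not overlap. EIF3A, the largest subunit, stood at 608.8, 580.0 and 502.5 CPM against 485.5, 500.5 and 477.7 CPM.

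Further subunits that fell in the 5-library fit spanned a narrow range: EIF3B had a log2 fold change of -0.45, EIF3E of -0.53, EIF3K of -0.44, EIF3M of -0.48, EIF3I of -0.32 and EIF3L of -0.32. With 6 libraries the values of these genes were -0.30, -0.37, -0.31, -0.29, -0.19 and -0.23, none past the threshold. EIF3G, the RNA-binding subunit, and EIF3J, a loosely bound one, fell by 0.21 and 0.27 (-0.15 and -0.20 with 6 libraries), and both lost their call there when P-T3H2-2A replicate 1 was also left out. EIF3C and EIF3CL fell by 0.56 and 0.55 (-0.40 and -0.41 with 6 libraries); they are near-identical copies on chromosome 16, so how reads were split between them is uncertain. EIF3F was the 1 subunit that did not pass (-0.18, SE 0.249, edgeR adjusted p = 0.611; -0.02 with 6 libraries). In deposited FPKM, mean levels over the 6 libraries ran from 70.3 for EIF3I and 64.7 for EIF3A down to 8.40 for EIF3M and 5.13 for EIF3F. These ranks depend on the length used for each gene. EIF3C had fewer FPKM than its near-identical copy EIF3CL (means of 21.1 and 38.65) but more CPM (211.5 and 133.4). The relative amounts of these mRNAs were therefore not resolved. Summed over the 14 genes, the level was 3054.6, 2942 and 2289.2 CPM with P-T3H2-2A against 2273.6, 2319.6 and 2246.3 CPM with P-T3H2.

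The 3 subunits of eIF2, which carries the initiator tRNA, all fell in the 5-library fit. EIF2S1, the alpha subunit that the stress kinases phosphorylate, stood at 124.0, 127.4 and 89.3 CPM with P-T3H2-2A and 91.8, 87.2 and 86.7 CPM with P-T3H2 (chromosome 14, 67359997 to 67386516). Its log2 fold change was -0.51 in the 5-library fit (SE 0.0526, edgeR adjusted p = 0.000362) and -0.36 with all libraries (SE 0.146, adjusted p = 0.275). For EIF2S2 and EIF2S3, the beta and gamma subunits, every P-T3H2 library lay below every P-T3H2-2A library, but the gap of EIF2S3 was narrow, from 131.6 CPM in P-T3H2-2A replicate 3 to 131.5 CPM in P-T3H2 replicate 1. They fell by 0.35 and 0.31 in the 5-library fit, against -0.25 and -0.21 with 6 libraries. EIF2S3B, a near-identical copy of the gamma subunit gene, stood at 12.7 to 14.3 CPM in all libraries and did not pass.

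Initiator tRNA can also be handled by factors outside eIF2, and these fell too in the 5-library fit. EIF2D, which acts in recycling and in unusual initiation, stood at 75.3, 76.5 and 51.7 CPM with P-T3H2-2A and 51.6, 53.3 and 50.6 CPM with P-T3H2, a log2 fold change of -0.55 (SE 0.0562, edgeR adjusted p = 0.000331) and of -0.39 with all libraries. EIF2A, a single-chain protein distinct from the alpha subunit of eIF2, fell by 0.38 in that fit, against -0.26 with all libraries.

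Subunits of eIF2B, the exchange factor that recharges eIF2, gave 2 calls among 5 in the 5-library fit, both lower. This was 40%, beside 45.4% of all genes. EIF2B3, the gamma subunit, stood at 40.8, 29.9 and 19.6 CPM with P-T3H2-2A and 19.9, 18.3 and 20.4 CPM with P-T3H2 (chromosome 1, 44850522 to 44986722). This was the largest change of any initiation factor gene tested, a log2 fold change of -0.86 in the 5-library fit (SE 0.137, edgeR adjusted p = 0.00248) and of -0.62 with all libraries (SE 0.255, adjusted p = 0.275), although the controls 1 and 2 differed between themselves. EIF2B1, the regulatory alpha subunit, stood at 59.6, 58.9 and 38.1 CPM with P-T3H2-2A, where replicate 3 lay at the P-T3H2 level, against 37.5, 42.1 and 38.5 CPM with P-T3H2, and fell by 0.59 in the 5-library fit (-0.41 with all). EIF2B2, EIF2B4 and EIF2B5 had log2 fold changes of -0.09, 0.11 and 0.0034 in that fit and of -0.11, 0.05 and 0.04 with 6 libraries, none past the threshold. EIF2B5, the catalytic epsilon subunit, stood between 75.5 and 85.1 CPM in every library.

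Of the 4 eIF2alpha kinases, 2 rose and 1 fell in the 5-library fit, 75% beside 45.4% of all genes. EIF2AK1 (HRI, activated by heme shortage and mitochondrial stress) had the highest level, not corrected for length. Its mean was 183.5 CPM, against 32.4, 48.3 and 34.6 CPM for EIF2AK3, EIF2AK4 and EIF2AK2. It stood at 165.6, 163.4 and 182.8 CPM with P-T3H2-2A and 192.5, 197.2 and 199.4 CPM with P-T3H2, groups that did not overlap (chromosome 7, 6022244 to 6059230). Without P-T3H2-2A replicate 3, EIF2AK1 rose by 0.25 (log2; SE 0.0458, edgeR adjusted p = 0.00389); with all libraries the value was 0.20 (SE 0.0807, adjusted p = 0.275). It was the 1 initiation factor gene that was higher at an unadjusted p under 0.05.

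EIF2AK2 (PKR, the sensor of double-stranded RNA) went the other way, from 41.7, 43.6 and 32.0 CPM with P-T3H2-2A to 30.9, 30.9 and 28.6 CPM with P-T3H2, also without overlap. Its log2 fold change was -0.50 in the 5-library fit (edgeR adjusted p = 0.00147) and -0.38 with all libraries (adjusted p = 0.275). EIF2AK3 (PERK, the sensor of endoplasmic reticulum stress) rose by 0.34 in the 5-library fit, from 28.0 and 27.1 CPM to between 33.2 and 36.4 CPM, with P-T3H2-2A replicate 3 at 34.6 CPM (0.22 with 6 libraries); the call was lost when P-T3H2-2A replicate 2 was also left out. EIF2AK4 (GCN2, the sensor of amino acid shortage) had a value of -0.17 and did not pass (adjusted p = 0.061). These are mRNA levels, and kinase activity was not measured here.

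**Figure D2:**
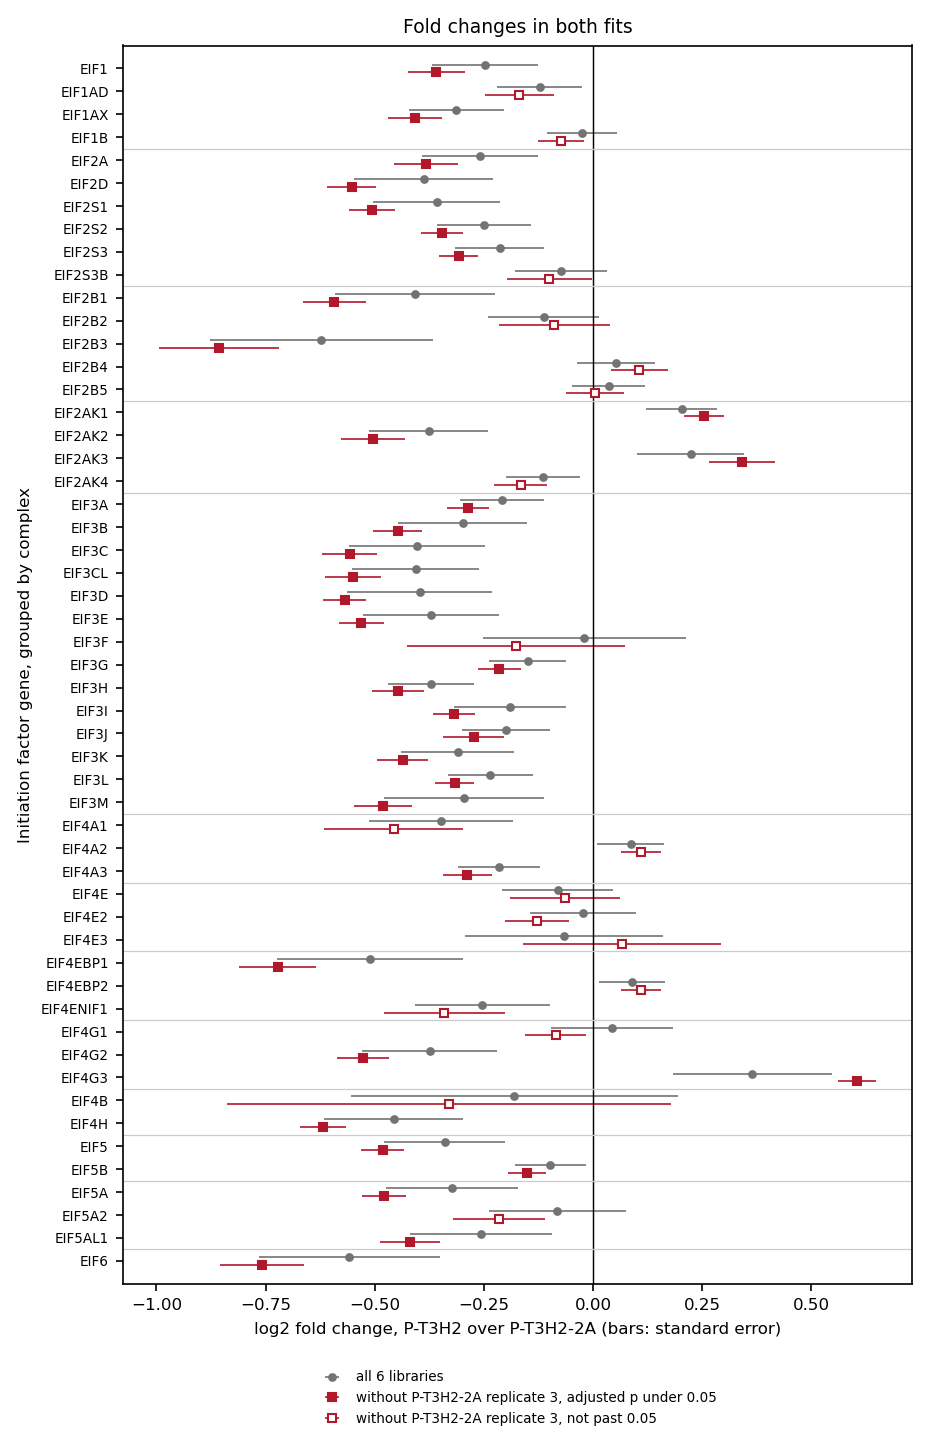
log2 fold change of P-T3H2 over P-T3H2-2A for 53 initiation factor genes, with bars for the standard error: grey circles are the fit of all 6 libraries, red squares the fit without P-T3H2-2A replicate 3, filled where the adjusted p was under 0.05. Red squares lie left of zero for most genes, from -0.86 for EIF2B3, and right of zero with a call for EIF4G3, EIF2AK3 and EIF2AK1.

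Factors of scanning and start codon choice were lower in part. EIF1AX, the X-linked gene of eIF1A, stood at 98.6, 96.0 and 79.2 CPM with P-T3H2-2A and 74.6, 69.2 and 76.6 CPM with P-T3H2, without overlap, and fell by 0.41 in the 5-library fit (edgeR adjusted p = 0.00171; -0.31 with all libraries, adjusted p = 0.275). EIF1, the gatekeeper of start codon choice, fell by 0.36 in the 5-library fit (-0.25 with 6 libraries), whereas its paralog EIF1B had a value of -0.07 (adjusted p = 0.296) and stood between 63.5 and 70.8 CPM everywhere. The difference between EIF1 and EIF1B was not itself tested. EIF1AD, whose product resembles eIF1A in sequence, stood between 22.9 and 27.3 CPM and did not pass (-0.17, adjusted p = 0.125).

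EIF5, the factor that makes eIF2 hydrolyse GTP at the start codon, stood at 123.5, 126.3 and 90.2 CPM with P-T3H2-2A and 88.0, 90.6 and 90.0 CPM with P-T3H2. Its log2 fold change was -0.48 in the 5-library fit (SE 0.0487, edgeR adjusted p = 0.00032) and -0.34 with all libraries (SE 0.139, adjusted p = 0.275). EIF5B, the GTPase of subunit joining, moved less: it fell by 0.15 in the 5-library fit (edgeR adjusted p = 0.0271; -0.098 with 6 libraries), a call lost when P-T3H2-2A replicate 1 or 2, or P-T3H2 replicate 1 or 3, was also left out.

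Of the 3 eIF4G scaffold genes, 1 rose, 1 fell and 1 did not pass in the 5-library fit, 66.7% called beside 45.4% of all genes. EIF4G3 stood at 228.6, 222.3 and 348.9 CPM with P-T3H2-2A and 345.7, 340.5 and 343.4 CPM with P-T3H2 (chromosome 1, 20806292 to 21176888). P-T3H2-2A replicate 3 was the highest library, close to the P-T3H2 libraries, and both other controls lay far below. EIF4G3 rose by 0.60 in the 5-library fit (SE 0.044, edgeR adjusted p = 9.5e-05), the smallest adjusted p among initiation factor genes, against 0.36 with all libraries (SE 0.182, adjusted p = 0.289). EIF4G2 (DAP5), a relative that lacks the eIF4E-binding part, stood at 734.7, 687.8 and 498.5 CPM against 475.1, 523.5 and 483.7 CPM; it fell by 0.53 in the 5-library fit (-0.37 with all libraries). EIF4G1, the main scaffold, had a value of -0.09 in that fit (adjusted p = 0.353) and of 0.04 with all libraries. Its lowest library was P-T3H2-2A replicate 3, at 807.6 CPM, where the others lay between 964 and 1136 CPM, so here this library did not lie with the P-T3H2 libraries. The share of EIF4G3 in the summed FPKM of these 3 genes was 15.6%, 16.4% and 28.8% with P-T3H2-2A. With P-T3H2 this share was 26.8%, 24.3% and 25.9%. Its size depends on the lengths behind FPKM, and in CPM EIF4G2 lay above EIF4G3 in every library.

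Among the helicases, EIF4A2 had a higher level than EIF4A1, at means of 569.5 and 214.8 CPM, not corrected for length. EIF4A1 stood at 271.2, 247.2 and 203.4 CPM with P-T3H2-2A and 228.4, 164.7 and 174.2 CPM with P-T3H2; the spread within groups was wide, and it did not pass in the 5-library fit by edgeR (-0.46, SE 0.16, adjusted p = 0.0763), while DESeq2 called it there (adjusted p = 0.0161), as edgeR did when P-T3H2 replicate 1 was also left out (-0.61, adjusted p = 0.00149). EIF4A2 was higher in every P-T3H2 library than in any control, but by little: 557.6, 528.0 and 571.5 CPM against 584.1, 575.8 and 599.7 CPM (0.11 in the 5-library fit, adjusted p = 0.0932). The share of EIF4A2 in the summed FPKM of both was 64.2%, 65% and 71% with P-T3H2-2A and 69%, 75.3% and 75% with P-T3H2. This share overlapped between the groups, and its size depends on the lengths behind FPKM. EIF4A3, a relative that works in the exon junction complex rather than in initiation, stood at 114.0, 105.4 and 93.9 CPM against 90.3, 89.6 and 89.9 CPM and fell by 0.29 in the 5-library fit (-0.22 with 6 libraries). Both EIF4A1 and EIF4A2 host small nucleolar RNA genes whose exon bases they share. EIF4A1 also shares exon bases with SENP3-EIF4A1 and AC016876.2 on its own strand.

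Neither cap-binding eIF4E nor its relatives passed. EIF4E stood at 28.7, 33.7 and 32.4 CPM with P-T3H2-2A and 34.4, 28.0 and 27.2 CPM with P-T3H2 (log2 fold change -0.08 with all libraries, -0.06 without P-T3H2-2A replicate 3, adjusted p = 0.701 and 0.707). EIF4E2, the cap-binding repressor also called 4EHP, stood between 70.4 and 89.7 CPM, and EIF4E3 between 2.28 and 3.35 CPM; neither passed. EIF4E1B, known as an oocyte form, had 0 counts in every library. EIF4E had a mean of 30.75 CPM, against 53 and 348.5 CPM for the genes of the 4E-binding proteins EIF4EBP1 and EIF4EBP2. In deposited FPKM the means were 1.92, 49.3 and 47.97, and the size of this gap depends on the length used for each gene.

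These 4E-binding proteins, which keep eIF4E away from eIF4G until mTORC1 phosphorylates them, gave 1 call in the 5-library fit, for EIF4EBP1. EIF4EBP1 stood at 72.3, 71.7 and 42.8 CPM with P-T3H2-2A and 39.1, 47.7 and 44.3 CPM with P-T3H2 (chromosome 8, 38030341 to 38060365). Its log2 fold change was -0.72 in the 5-library fit (SE 0.0886, edgeR adjusted p = 0.000716), a 1.65-fold lower level, and -0.51 with all libraries (SE 0.213, adjusted p = 0.275). EIF4EBP2 was higher in every P-T3H2 library than in any control, at 331.4, 333.4 and 348.4 CPM against 355.2, 370.0 and 352.6 CPM, but did not pass (0.11 in the 5-library fit, adjusted p = 0.0885). In terms of FPKM, EIF4EBP2 was 40.4%, 40.7% and 54.6% of the sum of both with P-T3H2-2A and 57.3%, 53.4% and 54% with P-T3H2. The size of these shares depends on the lengths behind FPKM. In CPM, EIF4EBP2 lay above EIF4EBP1 in every library. EIF4EBP3 had 1 to 4 counts per library and was too low to test. EIF4ENIF1, which shuttles eIF4E into the nucleus, had a value of -0.34 in the 5-library fit and did not pass (adjusted p = 0.0852).

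**Figure D3:**
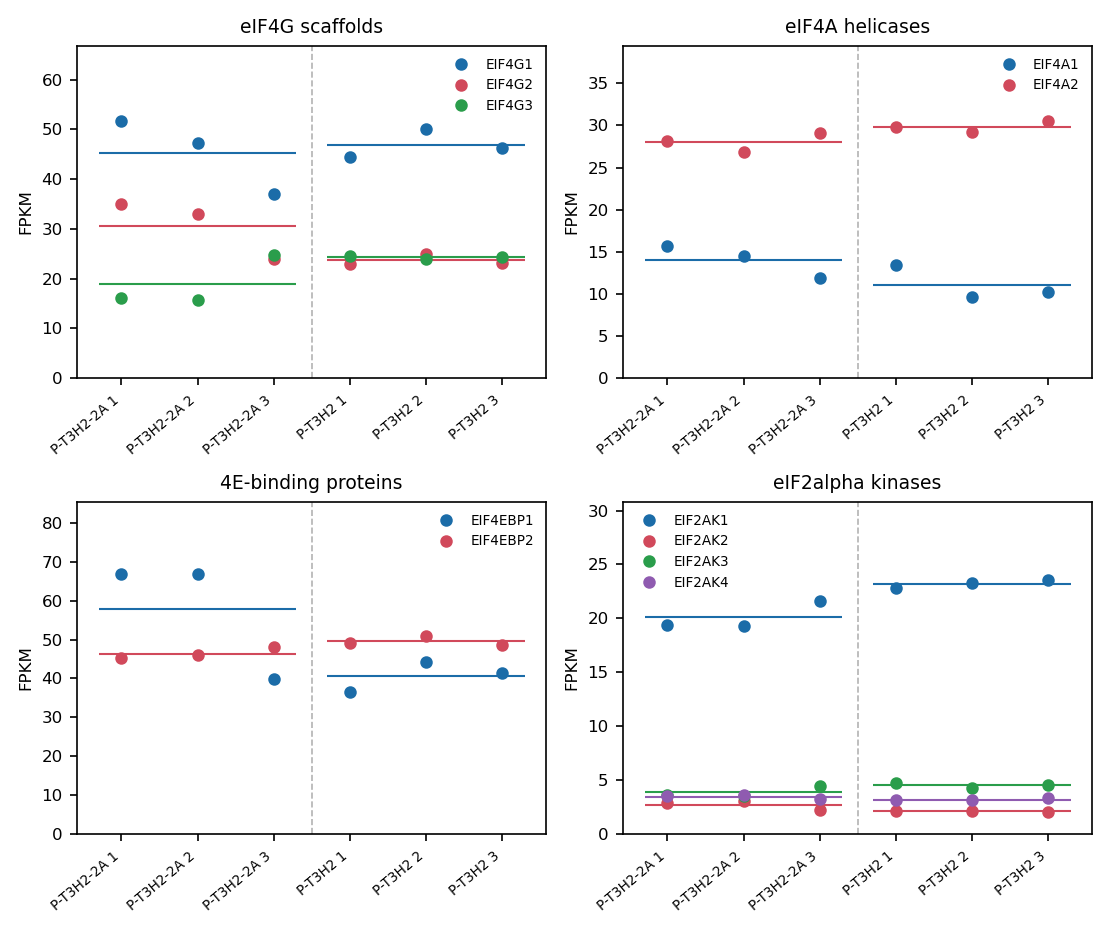
FPKM of eIF4G, eIF4A, 4E-binding protein and eIF2alpha kinase genes in each library (points), with horizontal lines for the mean of each group of 3 libraries; all axes start at 0. EIF4G2 and EIF4G3 change order in FPKM between P-T3H2-2A replicates 1 and 2 and most other libraries, as EIF4EBP1 and EIF4EBP2 do, while EIF4A2 lies above EIF4A1 and EIF2AK1 above the other kinases throughout. The order of genes in FPKM depends on the length used for each. In CPM, EIF4G2 lies above EIF4G3 and EIF4EBP2 above EIF4EBP1 in every library.

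EIF4H, a small RNA-binding partner of eIF4A, stood at 465.2, 461.3 and 316.9 CPM with P-T3H2-2A and 311.4, 307.9 and 286.9 CPM with P-T3H2, without overlap (chromosome 7, 74174245 to 74197101). The group means were 414.5 ± 84.5 and 302.0 ± 13.2 CPM (SD, n = 3 each). EIF4H had a log2 fold change of -0.62 in the 5-library fit (SE 0.0518, edgeR adjusted p = 0.00015) and of -0.46 with all libraries (SE 0.159, adjusted p = 0.275).

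EIF6, which keeps the large ribosomal subunit from joining too early and works in its assembly, had the second most negative value after EIF2B3. It stood at 241.7, 239.7 and 147.8 CPM with P-T3H2-2A and 125.3, 158.2 and 143.9 CPM with P-T3H2 (chromosome 20, 35278907 to 35284985). The level was 1.69-fold lower in the 5-library fit (log2 fold change -0.76, SE 0.0956, edgeR adjusted p = 0.00116), and the value was -0.56 with all libraries (SE 0.206, adjusted p = 0.275). EIF5A, whose protein carries the modified amino acid hypusine, stood at 219.0, 214.7 and 151.4 CPM with P-T3H2-2A, against a mean of 155.9 ± 5.11 CPM (SD, n = 3) with P-T3H2, and fell by 0.48 in the 5-library fit (-0.32 with 6 libraries); EIF5AL1, a near-identical copy, fell by 0.42 (-0.26 with 6 libraries), and reads may be split between them. EIF5A2, a less abundant paralog, stood between 12.6 and 17.8 CPM and did not pass (-0.22, adjusted p = 0.136).

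EIF4B and EIF3F followed neither the peptides nor the library labelled P-T3H2-2A replicate 3. EIF4B, an RNA-binding cofactor of eIF4A, stood at 671.9, 335.3 and 357.4 CPM with P-T3H2-2A and 588.3, 344.6 and 271.1 CPM with P-T3H2 (chromosome 12, 53006158 to 53042209). EIF3F stood at 88.7, 58.6 and 51.2 CPM and at 78.6, 60.2 and 56.8 CPM. Replicate 1 was thus the highest library of both groups for each gene. Among 9910 genes with a mean of at least 10 CPM, 25 were at least 1.2-fold above both other libraries of the group in replicate 1 of both groups, a threshold chosen after their values were seen, and EIF4B and EIF3F were 2 of these. EIF4B had a log2 fold change of -0.18 with all libraries (SE 0.375, adjusted p = 0.772), and its SE was the widest of the 53 genes. Pseudogenes of these genes did not show it: EIF4BP7 stood at 154.5, 149.6 and 132.6 CPM and at 124.8, 135.4 and 125.5 CPM, and EIF3FP3 at 17.8, 17.7 and 12.1 CPM and at 13.2, 13.9 and 14.2 CPM.

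**Figure D4:**
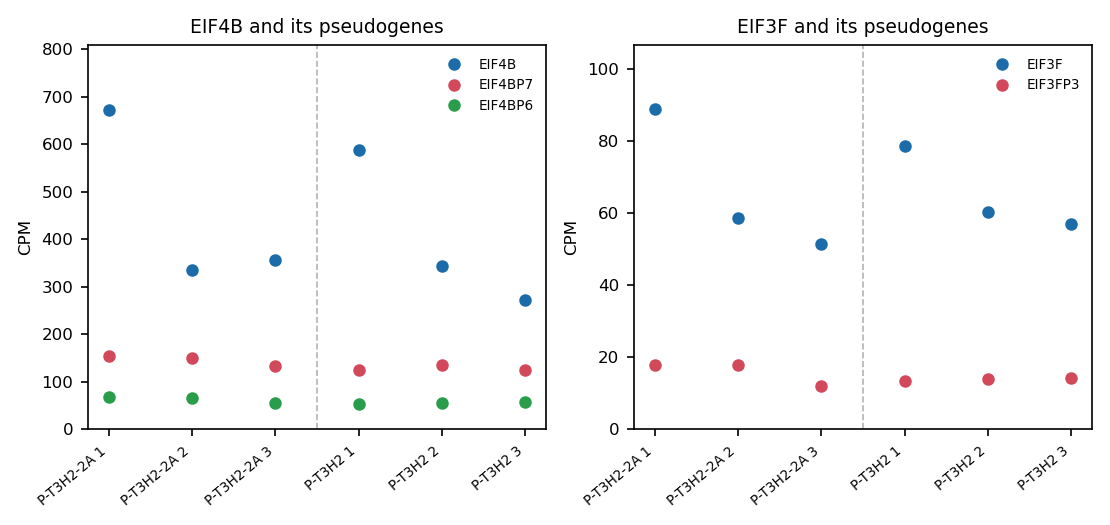
CPM of EIF4B with its pseudogenes EIF4BP7 and EIF4BP6 (left) and of EIF3F with its pseudogene EIF3FP3 (right) in each of the 6 libraries; each point is 1 library. EIF4B is at 671.9 and 588.3 CPM in replicate 1 of the groups and between 271.1 and 357.4 CPM elsewhere, while the pseudogenes stay level by comparison.

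EIF4B and EIF3F are known for mRNAs that begin with a tract of C and T bases, the terminal oligopyrimidine tract through which mTORC1 controls translation of many components of the protein synthesis machinery. RefSeq start windows (GRCh38.p14) were found for 46 of the 55 genes, taking for each the window nearest the start in the deposited table. The longest run of C and T bases that opens with a C within 10 bases of the RefSeq start was measured. Runs of at least 9 bases were present in 7 of the 46, or 15.2%, and in 6.72% of 18021 genes with a window. Shown are 6 of these 7, as 80 bases of the coding strand, 50 before the RefSeq start and 30 after, with the run in capitals, to set EIF4B and EIF3F beside genes that share the feature but were not high in replicate 1 of both groups; EIF2S3B, the copy of EIF2S3, is not shown.
EIF4B, chr12:53006406-53006485, plus strand: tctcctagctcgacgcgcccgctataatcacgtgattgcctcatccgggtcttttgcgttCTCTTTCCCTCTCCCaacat
EIF3F, chr11:7987287-7987366, plus strand: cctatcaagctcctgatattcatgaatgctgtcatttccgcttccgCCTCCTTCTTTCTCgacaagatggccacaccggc
EIF2S3, chrX:24054906-24054985, plus strand: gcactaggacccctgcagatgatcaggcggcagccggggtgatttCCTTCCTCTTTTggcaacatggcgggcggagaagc
EIF3D, chr22:36529137-36529216, minus strand: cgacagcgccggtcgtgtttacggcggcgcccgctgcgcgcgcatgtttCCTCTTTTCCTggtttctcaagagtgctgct
EIF3K, chr19:38619138-38619217, plus strand: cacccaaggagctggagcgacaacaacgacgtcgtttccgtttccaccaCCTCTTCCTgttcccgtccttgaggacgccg
EIF3M, chr11:32583781-32583860, plus strand: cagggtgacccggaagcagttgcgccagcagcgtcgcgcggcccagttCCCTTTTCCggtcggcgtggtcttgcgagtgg

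The runs were 15 bases long in EIF4B and EIF2S3B, 14 in EIF3F, 12 in EIF2S3, 11 in EIF3D and 9 in EIF3K and EIF3M. EIF2S3, EIF3D, EIF3K and EIF3M fell in the 5-library fit, while EIF2S3B did not pass (log2 fold change -0.10, edgeR adjusted p = 0.439). None of these had its highest level in replicate 1 of both groups by the margin above. Elongation factor mRNAs are known to carry the tract as well. EEF2 stood at 3624, 3634 and 3277 CPM with P-T3H2-2A and 3173, 3432 and 3298 CPM with P-T3H2. EEF1B2 and EEF1E1 were highest in replicate 1 of both groups, but by less than the 1.2-fold margin. EEF1B2 stood at 351.1, 346.3 and 265.0 CPM with P-T3H2-2A and 252.7, 247.6 and 245.1 CPM with P-T3H2. Whether the tract has a part in the replicate 1 levels was not tested. The RefSeq start of EIF3F lies 17086 bases inside the gene of the deposited table, which begins further upstream. The E-box CACGTG, searched on both strands of the 300-base windows, was present in 12 of the 46 genes, namely EIF1B, EIF2AK2, EIF2B3, EIF3F, EIF3K, EIF4A3, EIF4B, EIF4E, EIF4EBP3, EIF4G1, EIF4H and EIF5A2, and in 8.43% of all 18021. The ETS core CCGGAAG, searched the same way, was also in 12 of the 46 (26.1% for either motif), and in 13.1% of all windows. Both sets of carriers hold genes with and without a call. A match describes letters in a window and shows no bound factor.

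The strand used in counting is not known, and 23 of the 55 genes share at least 100 exon bases with an antisense gene. Their reads cannot be told apart from those of the antisense gene. Among them are EIF3H, EIF2B3, EIF2S1, EIF2A, EIF2AK1, EIF2AK2, EIF2AK3, EIF2B1, EIF4B, EIF4G2, EIF5A and EIF5B. As many bases are shared with a gene on the same strand by 8 genes. These are EIF3L, EIF4A1, EIF4A2, EIF4E, EIF4E3, EIF4EBP3, EIF4G2 and EIF6.

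Beyond the initiation factors, 54 other genes of protein synthesis and its control were listed, of which 53 were tested. None passed with 6 libraries in edgeR (12 at an unadjusted p under 0.05, 9 lower and 3 higher; median log2 fold change -0.11), while DESeq2 called DDIT4 lower (adjusted p = 0.0432). At that unadjusted p the share was 22.6% of the list and 18% of all genes. In the 5-library fit 19 fell (35.8%) and 10 rose, 54.7% in all, beside 45.4% of all genes (22.8% lower, 22.6% higher), and the counts per list below are to be read against those shares. With 6 libraries none of the genes named here passed in edgeR. Of 9 elongation factor genes 5 fell and 1 rose; EEF1B2, an exchange factor for eEF1A, fell by 0.49 (-0.37 with 6 libraries), from 351.1 and 346.3 CPM to between 245.1 and 252.7 CPM, and EEF1E1 by 0.21 (-0.19), a call lost under DESeq2, with library totals and with any further library left out (adjusted p from 0.0523 to 0.241). Of 5 termination and recycling genes tested 3 fell and 2 rose. ABCE1, the recycling ATPase, fell by 0.46 (-0.34 with 6 libraries) and MCTS1, a partner of DENR, by 0.57 (-0.42). GSPT1, the release factor eRF3a, and ETF1, eRF1, were those that rose, by 0.76 and 0.35 (0.43 and 0.22 with 6 libraries).

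Among 13 genes of poly(A)-binding proteins, helicases and other accessory factors, 7 fell and 1 rose in the 5-library fit. The riser was PDCD4, an inhibitor of eIF4A, at 15.3, 20.5 and 27.9 CPM with P-T3H2-2A and 34.9, 29.6 and 35.1 CPM with P-T3H2 (0.89 in the 5-library fit, edgeR adjusted p = 0.00272; 0.64 with all libraries, adjusted p = 0.275). BZW2, which mimics eIF5, fell by 0.31 (-0.28 with 6 libraries). Among 6 genes of the eIF2alpha phosphatase and the ATF4 arm, PPP1R15B, a subunit of that phosphatase, rose by 0.35 (0.24 with 6 libraries). NCK1 rose by 0.34 (0.12), and none of the 6 genes fell. The call of NCK1 was lost under DESeq2, without the low-count filter and with any further library left out but P-T3H2 replicate 2 (adjusted p from 0.0532 to 0.177). ATF4, whose translation rises when eIF2 is phosphorylated, stood between 396.6 and 448.8 CPM in every library. Of 15 mTORC1 and MNK pathway genes 4 rose and 3 fell, 46.7% beside the 45.4% of all genes. SESN2, an inhibitor of mTORC1, stood at 20.0, 19.2 and 37.1 CPM against 42.5, 42.5 and 44.9 CPM and rose by 1.14 (edgeR adjusted p = 5.7e-05; 0.77 with 6 libraries, adjusted p = 0.275), and DDIT4, another inhibitor, went from 17.2, 16.7 and 12.7 CPM to 9.74, 7.29 and 9.99 CPM and fell by 0.91 (adjusted p = 0.00232; -0.78 with 6 libraries, adjusted p = 0.275). The hypusine enzymes DHPS and DOHH did not pass (-0.12 and -0.17). Of 3 mitochondrial initiation genes, MTIF2 fell by 0.76 (-0.58 with 6 libraries), at 59.4, 62.1 and 39.7 CPM against 34.5, 38.3 and 34.8 CPM, while MTIF3 and MTFMT did not pass.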

How the data were processed

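Per the file headers, each of 6 libraries has a column of counts (whole numbers) and one of FPKM, deposited by the authors for 50868 genes. Per the submitters' processing notes the tools were HISAT2 2.0.4, edgeR and StringTie 1.3.3b, with no roles given; the notes name a mouse build, but the table lists human Ensembl genes, and 52 of the 55 genes have identical coordinates in GENCODE 29 (GRCh38). For annotation and strand setting, the sources used here give nothing. The labels name 2 library kits without tying either to a library. Deposited FPKM equal counts over library total and 1 length per gene. This held within 0.001 for 13364 of 13364 genes with at least 20 counts in each library. For some genes, among them EIF1, EIF3G, EIF4A1, EIF4A2, EIF4G1, EIF4G2 and EIF5, that length is greater than the whole span of the gene. It is therefore not an mRNA length. Ranks of genes by FPKM and shares in summed FPKM depend on the length used and do not give relative mRNA amounts. Every pair of libraries differed by more than sampling noise (smallest chi-square per gene 11.6).

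Counts of all genes were tested in R 4.3.3 with edgeR 4.0.16, using the filter filterByExpr (minimum count 10, total 15), TMM scaling, robust quasi-likelihood fits on group alone, and a threshold of 0.05 after Benjamini-Hochberg adjustment. CPM are counts scaled to the TMM-adjusted library total. The standard error is the log2 fold change over the square root of F. The procedure was tested on simulated data with independent replicates and changes larger than most reported here. No simulated control resembled the other group, so this does not bear on leaving out P-T3H2-2A replicate 3. Alternatives were DESeq2 1.42.0, its size factors, library totals, no low-count filter, the replicate number as a block and leaving out each library. Named genes were, per complex or list, the 2 of smallest p with 6 libraries, and the 5 initiation factor genes of largest change without P-T3H2-2A replicate 3 with a mean of at least 5 CPM; others were chosen after their values were seen. The genes, lists and the fit without that library were chosen with earlier results of these data known. Counting error is set by 17434442 to 21374732 counts per library, and no use of molecular identifiers is stated. One gene of the leukocyte marker list is not reported here.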

Additional observations from a re-analysis of the deposited data

How the results depend on the processing

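With 6 libraries, initiation factor genes called stayed at 0 under DESeq2, both other scalings, no low-count filter and the replicate block. Leaving out 1 library gave 0 to 35 calls (0 to 3 higher, 0 to 32 lower), with 35 only without P-T3H2-2A replicate 3, and 0 to 29 other pathway genes (0 to 10 higher, 0 to 19 lower); DESeq2 called 1 of the latter, lower. The 5-library fit gave 35 or 36 calls under the other tool, scalings and filter, and 32 to 35 with a further library left out; 31 of its 35 genes were called under all 9 alternatives, and EIF2AK3, EIF3G, EIF3J and EIF5B were not. A control left alone is taken to have the same spread as the P-T3H2 group. The labels do not say that replicate numbers pair the samples. Over all genes, deviations from the group means correlated at -0.0513, 0.163 and 0.112 for numbers 1, 2 and 3, and P-T3H2-2A replicate 1 correlated best with P-T3H2 replicate 2. Over the 53 initiation factor genes they correlated at 0.3, 0.539 and 0.159, and every library correlated best with its own number. These genes include EIF4B and EIF3F, which were high in replicate 1 of both groups. How far the correlations rest on them was not tested, and whether libraries were paired cannot be told from these values. With the replicate block 0 genes of the whole table were called, against 1 without it, and EIF3F had a value of 0.0044.

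The genes that changed sign had no call in the fit they are listed under. Over left-out libraries with all 6 as the start, log2 fold changes ran from -0.0739 to 0.0027 for EIF1B, -0.18 to 0.25 for EIF3F, -0.56 to 0.21 for EIF4B, -0.13 to 0.0382 for EIF4E2, -0.23 to 0.0658 for EIF4E3, -0.0857 to 0.15 for EIF4G1 and -0.22 to 0.021 for EIF5A2. From the 5-library fit they ran from -0.28 to 0.12 for EIF2B2, -0.0813 to 0.0847 for EIF2B5, -0.45 to 0.15 for EIF3F, -0.75 to 0.26 for EIF4B, -0.18 to 0.05 for EIF4E, -0.12 to 0.26 for EIF4E3 and -0.46 to 0.19 for DOHH; without the filter EIF2B5 was at -0.0128. The cause was not tested. Strand is not known for the counting, and 23 of the 55 genes share at least 100 exon bases with an antisense gene (EIF2S1 with ATP6V1D, EIF2B1 with DDX55, EIF2AK1 with AIMP2, EIF4G2 with CTR9), so their reads cannot be told apart.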

Other observations

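Pseudogenes of the initiation factors, left out above, hold further counts: of 72 such names 30 were at 0 in all libraries and 11 had a mean of at least 5 CPM. As a sum they took 0.04185% to 0.05596% of all counts. EIF4A1P10 stood at 49.9, 43.3 and 30.3 CPM with P-T3H2-2A and 24.0, 29.6 and 26.9 CPM with P-T3H2 and fell by 0.80 in the 5-library fit (edgeR adjusted p = 0.00117), where EIF4A1 itself did not pass. EIF1AXP1 fell by 0.50 and EIF2S2P4 by 0.41 there, beside values of -0.41 for EIF1AX and -0.35 for EIF2S2. Reads of a gene and its processed copies may be split by the counting, so these levels are uncertain.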
